A study of Mus musculus with 2 samples.

Results

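The tumour necrosis factor (TNF) superfamily is described here by its Gata3 binding in TH2 cells, the T helper cells that make IL-4, IL-5 and IL-13. The members are the protein-coding genes of GENCODE M21 whose symbols begin with *Tnfsf* or *Tnfrsf*, together with *Tnf*, *Lta*, *Ltb*, *Ltbr*, *Cd27*, *Cd40*, *Cd40lg*, *Cd70*, *Fas* and *Fasl*, chosen by name. This gave 42 members among 21938 protein-coding genes, of which 18 encode ligands and 24 encode receptors. Gata3 was measured by ChIPmentation, in which chromatin bound by an anti-GATA3 antibody (clone D13C9) is cut and tagged by a transposase on the beads, in 2 libraries of mouse TH2 cells expanded *in vitro* from spleen. Per the study's methods, TH2 cells were grown from naive CD4+ T cells with anti-CD3, anti-CD28, IL-2, IL-4 and an antibody neutralising IFN-γ, and the study's mice were on the C57BL/6 background. The labels give no age, genotype or sex of the donor mice for these libraries, and they name ILC2 in the extraction protocol and TH2 cells elsewhere. Both deposited files carry the term CD4cre in their names, which the labels do not explain and which was not used. Both libraries belong to the same condition and nothing states that they came from separate cultures. Neither input chromatin nor a control antibody was analysed here.

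Ligands of the TNF superfamily are mostly trimeric proteins of the cell surface, some of which are shed, and they act by clustering their receptors. The receptors recruit TRAF adaptors, which lead to NF-κB and MAP kinases, or, where they carry a death domain, adaptors that can trigger caspases. On T cells, several receptors (OX40, GITR, 4-1BB, CD30, CD27) are costimulators, and ligands such as CD40L, FasL and RANKL carry the T cell's help or killing to other cells. OX40 and its ligand have long been studied in TH2 immunity. Gata3 is the zinc finger factor that directs TH2 differentiation and binds a GATA sequence. This was searched as AGATAA on either strand, in which T may replace the leading A and G the closing A.

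Library 1 held 40526613 reads and library 2 held 24970952 reads, and by their read names they were sequenced on different instruments. A peak was a run of 200-bp windows with more reads than the surroundings in the same library, at a Benjamini-Hochberg q of 0.01 in a one-sided exact Poisson test, and a peak was called shared where those of the libraries overlapped. There were 23806 shared peaks. Heights are given as reads in the summit window of each library and as RPM, reads scaled to 1000000 reads on chromosomes 1 to 19, X and Y. Peaks were ranked by the lower RPM of the libraries. The summits of a shared peak can lie in different windows in the libraries, and positions are those of library 1 unless stated. Genes that mark TH2 and T cells held shared peaks (*Il4* 3, *Il5* 4, *Il13* 1, *Gata3* 4, *Il1rl1* 3, *Cd3e* 2, *Cd4* 5), while those of B cells (*Pax5*, *Cd79a*) and macrophages (*Csf1r*, *Adgre1*) held 0. A count of 0 was also that of 11907 of the 21938 protein-coding genes, and these counts do not tell which cells were present. Binding is not expression, and no RNA was measured in these libraries.

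The sites that carry the main observations are shown first, as the plus strand of GRCm38, 201 bp centred on the summit in library 1, with each GATA match in capitals. A match on the minus strand appears as its reverse complement, such as TTATCT. The 8 sites of the first group are a choice, made after their values were seen, of tall peaks with matches and of peaks near start sites whose match lies beside the summit. Tall peaks with a match in the untranslated exons of *Tnfsf8* and *Tnfrsf26* and beside *Tapbpl* in the window of *Cd27* are described further on without their sequence.
Site between *Tnfrsf4* and *Tnfrsf18*, chr4:156022150-156022350: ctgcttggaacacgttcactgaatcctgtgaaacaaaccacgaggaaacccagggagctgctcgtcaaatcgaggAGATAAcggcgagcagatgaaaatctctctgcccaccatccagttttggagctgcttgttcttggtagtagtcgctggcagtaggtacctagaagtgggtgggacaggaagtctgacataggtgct
Site upstream of *Tnfrsf4*, chr4:156009050-156009250: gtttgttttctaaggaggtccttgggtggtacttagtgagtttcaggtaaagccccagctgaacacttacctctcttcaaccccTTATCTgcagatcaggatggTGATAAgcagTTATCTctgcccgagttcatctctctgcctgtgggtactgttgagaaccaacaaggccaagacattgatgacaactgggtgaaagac
*Tnfrsf9* intron 1, chr4:150924350-150924550: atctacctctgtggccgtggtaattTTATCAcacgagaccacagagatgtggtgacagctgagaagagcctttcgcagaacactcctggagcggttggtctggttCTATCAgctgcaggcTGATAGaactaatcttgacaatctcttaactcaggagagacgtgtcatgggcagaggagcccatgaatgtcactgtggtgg
*Tnfrsf9* intron 1 near the start site, chr4:150915200-150915400: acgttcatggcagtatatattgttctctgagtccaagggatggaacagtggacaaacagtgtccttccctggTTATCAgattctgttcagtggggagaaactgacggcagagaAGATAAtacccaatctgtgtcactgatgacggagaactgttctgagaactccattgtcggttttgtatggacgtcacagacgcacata
*Tnfsf8* intron 1, chr4:63854500-63854700: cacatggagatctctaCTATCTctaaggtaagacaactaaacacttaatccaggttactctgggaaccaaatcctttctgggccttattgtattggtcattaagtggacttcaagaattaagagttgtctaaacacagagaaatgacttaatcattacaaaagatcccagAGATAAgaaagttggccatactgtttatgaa
*Tnf* intron 1, chr17:35201250-35201450: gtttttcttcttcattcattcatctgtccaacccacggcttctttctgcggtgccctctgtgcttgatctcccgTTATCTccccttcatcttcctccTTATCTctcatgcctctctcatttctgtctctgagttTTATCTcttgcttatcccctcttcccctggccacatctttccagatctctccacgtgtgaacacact
*Tnfsf11* intron 1, chr14:78307100-78307300: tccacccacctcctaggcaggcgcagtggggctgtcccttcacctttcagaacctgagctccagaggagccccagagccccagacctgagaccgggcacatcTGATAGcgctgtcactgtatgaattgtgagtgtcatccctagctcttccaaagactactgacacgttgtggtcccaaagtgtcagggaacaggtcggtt
Site upstream of *Cd40lg*, chrX:57210850-57211050: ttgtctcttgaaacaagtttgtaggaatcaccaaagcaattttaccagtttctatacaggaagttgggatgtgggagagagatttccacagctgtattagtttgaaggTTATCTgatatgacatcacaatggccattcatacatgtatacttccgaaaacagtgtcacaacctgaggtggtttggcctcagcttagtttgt
Each of these sites holds 1 to 3 matches. The *Tnf* site holds TTATCT 3 times, at 26 bp and 3 bp before and 34 bp after the summit position, counted to the first base of each match on the plus strand. Below them stand the sites of 3 tall peaks in which no match was found in the same window.
*Fas* intron 1, chr19:34299300-34299500: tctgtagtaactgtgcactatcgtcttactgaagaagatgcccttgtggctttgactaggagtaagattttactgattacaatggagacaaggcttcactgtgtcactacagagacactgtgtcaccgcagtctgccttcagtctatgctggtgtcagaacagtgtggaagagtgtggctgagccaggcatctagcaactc
*Tnfrsf13b* intron 5, chr11:61141750-61141950: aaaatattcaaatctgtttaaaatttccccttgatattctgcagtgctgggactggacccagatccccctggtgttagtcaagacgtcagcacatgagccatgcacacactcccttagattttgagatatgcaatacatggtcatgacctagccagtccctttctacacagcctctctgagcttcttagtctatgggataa
*Tnfrsf1a* intron 1, chr6:125353250-125353450: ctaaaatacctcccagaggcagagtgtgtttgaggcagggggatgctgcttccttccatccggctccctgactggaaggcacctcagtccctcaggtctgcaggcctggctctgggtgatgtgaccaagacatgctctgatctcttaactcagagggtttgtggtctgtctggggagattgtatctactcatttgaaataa

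Of the 42 members, 32 (76.2%) held at least 1 shared peak in the gene body or within 10 kb of it, against 45.7% of all protein-coding genes. By the peaks of library 1 alone this was 37 members against 74.0% of all genes, with 101 peaks at the members, and by those of library 2 alone 34 against 49.5%, with 65 peaks. A shared peak was held by 15 of 18 ligands and 17 of 24 receptors. The windows of 700 of all genes held no read in either library, and without them the background was 47.2%. The promoter, taken as 2 kb either side of the gene start, held a shared peak in 14 members (33.3%), 9 ligands and 5 receptors, against 11.7% of all genes. By the peaks of library 1 alone this was 19 members against 28.0% of all genes, and by those of library 2 alone 14 against 13.1%. Where a peak had to stand at least 5-fold over its surroundings in both libraries, 11 of 42 members kept one, against 18.4% of all genes. Among the 21 that did not were *Tnf*, *Lta*, *Ltb*, *Tnfsf4*, *Tnfsf8*, *Tnfsf11*, *Fas*, *Cd27*, *Tnfrsf1a*, *Tnfrsf8*, *Tnfrsf19*, *Tnfrsf22* and *Tnfrsf26*. The surroundings include the peak's own reads, so this limit does not sort peaks by height. The tallest *Tnfrsf19* peak (140 and 81 reads) stood at 5.19-fold and 4.52-fold. The *Tnfrsf17* peak (25 and 18 reads), which was kept, stood at 5.43-fold and 6.16-fold. At a q of 1e-10, 20 members kept a shared peak, against 15.3% of all genes, and *Fasl*, *Tnfsf4* and *Tnfrsf8* were among the 12 that did not. These shares are descriptions and were not tested. The members share loci: 9 pairs of members, 11 genes in all, have overlapping windows, and 5 of the 60 distinct shared peaks were counted for more than 1 member. The 60 peaks amount to 3.94 per 100 kb of member sequence, 6.13 at ligands and 2.85 at receptors, against 1.28 in the windows of all protein-coding genes and 0.873 over the genome.

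Gene length bears on this count, since a longer window can hold more peaks. Among members under 5 kb, 10 of 13 held a shared peak, against 24.1% of all genes of that length. Among members of 5 to 20 kb the count was 9 of 13 against 35.6%, and among those of 20 kb or longer it was 13 of 16 against 62.1%. The distance between members and all genes was thus widest for the short genes, which include *Tnf*, *Lta*, *Ltb*, *Tnfrsf4* and *Tnfrsf18* and among which peaks are counted for more than 1 member.

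**Figure D1:**
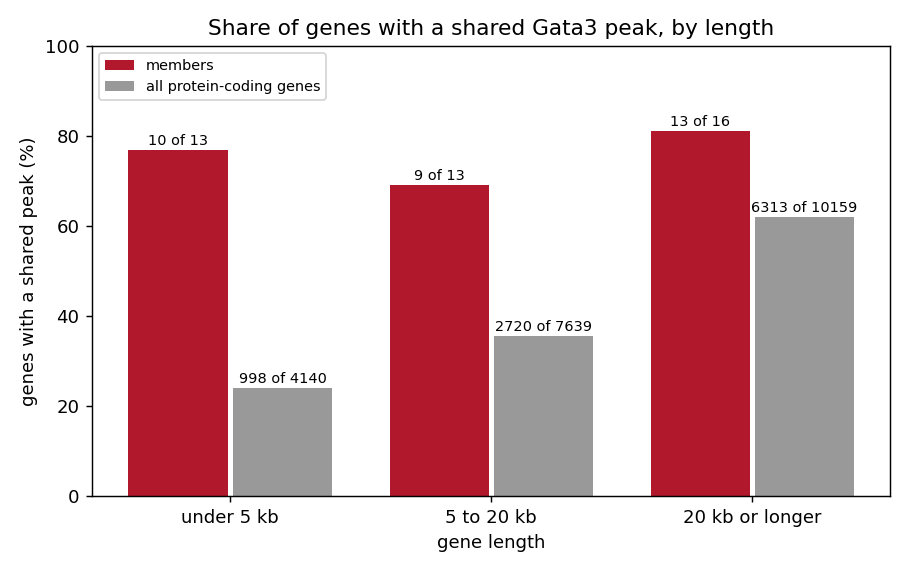
Percent of genes with a shared Gata3 peak in the gene body plus 10 kb (vertical axis) by gene length, for the 42 members (red) and all protein-coding genes (grey), with the counts above each bar. Among genes under 5 kb the members stand at 76.9% and all genes at 24.1%, and among those of 20 kb or longer at 81.2% and 62.1%.

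The height of the member peaks can be read without a call at each gene, from the highest 200-bp window that a gene holds in both libraries. Its median, taken as the lower RPM of the libraries, was 1.40 RPM over the members and 0.469 RPM over all genes. Among the 60 shared peaks the median height was 1.10 RPM, with a range of 0.370 to 3.25 RPM, against 0.801 RPM over all shared peaks. Of the 60, 39 stood above that median and 12 stood above 1.98 RPM, which 10% of all shared peaks exceeded.

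**Figure D2:**
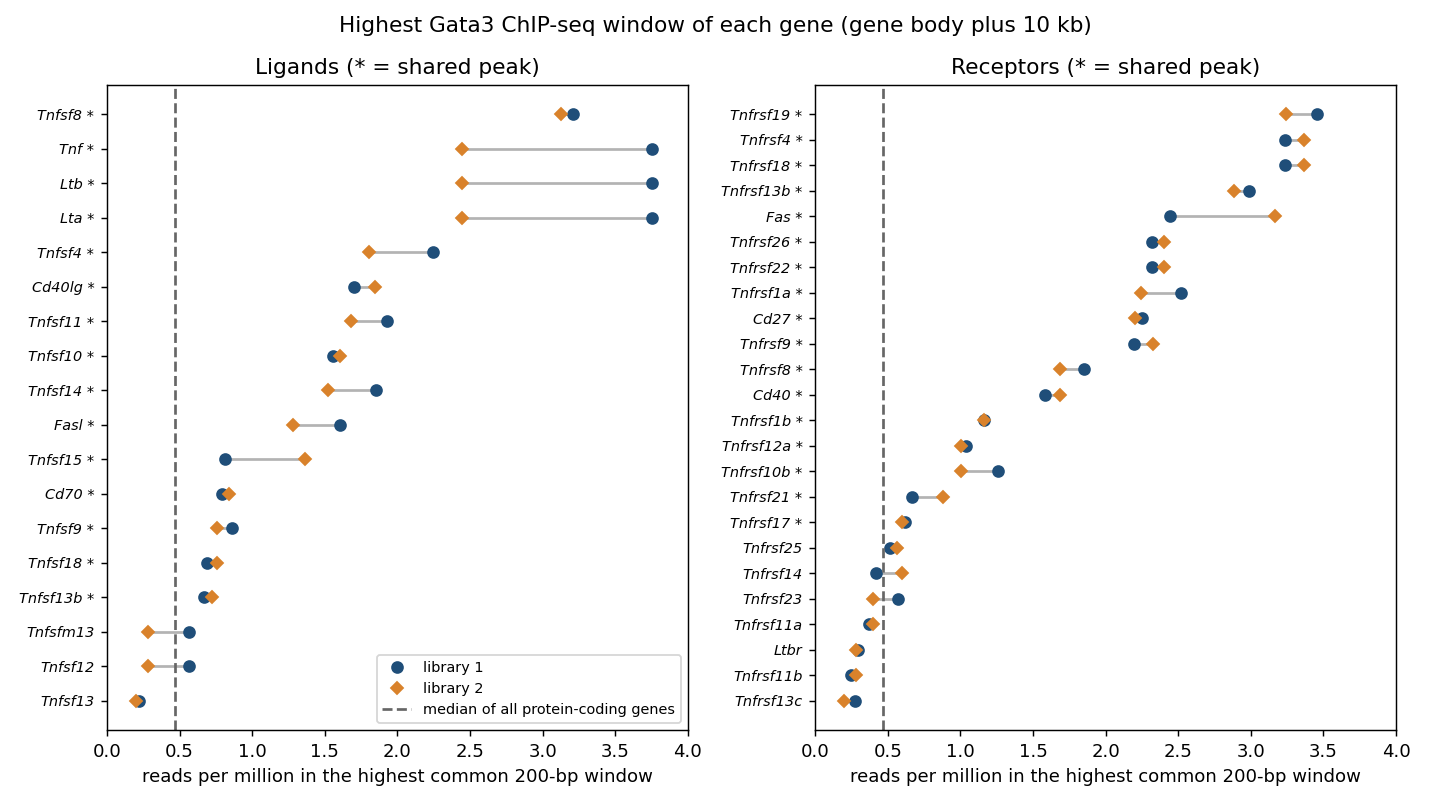
RPM in the highest 200-bp window common to both libraries (horizontal axis) for each ligand (left) and receptor (right), with library 1 as circles, library 2 as diamonds and an asterisk for genes with a shared peak. *Tnfrsf19*, *Tnfrsf4*, *Tnfrsf18* and *Tnfsf8* lie above 3 RPM in both libraries, while the dashed line marks 0.469 RPM, the median of all protein-coding genes. *Tnf*, *Lta* and *Ltb* share a window, as do *Tnfrsf4* and *Tnfrsf18*, and *Tnfrsf22* and *Tnfrsf26*.

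The costimulatory receptors held 11 distinct shared peaks at 5 of 7 genes, beside 45.7% of all genes with a shared peak. *Tnfrsf4* (OX40, which sustains activated T cells) and *Tnfrsf18* (GITR, a costimulator also abundant on regulatory T cells) are neighbours on chromosome 4, at 156013843 to 156016612 and at 156026164 to 156028895, both on the plus strand. Between them, 8407 bp past the *Tnfrsf4* start site and 3914 bp before that of *Tnfrsf18*, the library 1 summit at 156022250 held 131 reads (95% exact Poisson interval 109.5 to 155.4). In library 2 the summit was at 156022350 with 87 reads (69.7 to 107.3), and the window of the library 1 summit held 84. The summit heights are 3.23 and 3.49 RPM, at the 97.4 percentile of shared peaks. They stood 6.13-fold and 6.16-fold above their surroundings (p = 1.1e-57 and 4.5e-39 in the one-sided exact Poisson test). The peak held a GATA match, an AGATAA whose centre lies 22 bp from the library 1 summit.

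A peak of like height lay 4693 bp upstream of *Tnfrsf4*, with 122 and 74 reads (3.01 and 2.96 RPM). Its summit at 156009150 falls in the body of *Sdf4*, the neighbouring gene, but the nearest start site is that of *Tnfrsf4*. Whether the site overlaps a coding exon of *Sdf4* was not examined. The 3 GATA matches of this peak begin 16 bp before and 4 and 14 bp after the summit in the sequence printed above. Lower peaks completed the locus, in intron 4 of *Tnfrsf4* (36 and 20 reads) and 4686 bp past the *Tnfrsf18* start (62 and 50 reads). The same sites stood out in both libraries, and the ratio of library 2 to library 1 was 1.08 (95% interval 0.812 to 1.42) at the tallest and 0.984 (0.727 to 1.32) at the upstream site. Both ratios compare summits that lie in different windows in the libraries.

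*Tnfrsf9* (4-1BB, which promotes survival of activated T cells) held 4 shared peaks, all in its introns, and 1 at a q of 1e-10. The gene occupies 150914562 to 150946102 of chromosome 4. The tallest summit lay 9888 bp past the gene start, in intron 1 of a transcript with 8 exons, and 856 bp from the nearest annotated transcript start. It had 90 and 58 reads (2.22 and 2.32 RPM), 3 GATA matches and 3 copies of the RUNX sequence TGTGGT. A summit 738 bp past the gene start, in intron 1 of a transcript with 6 exons, had 83 and 38 reads. Intron 7 of a transcript with 8 exons held summits with 48 and 26 and with 51 and 20 reads. All 4 had at least 1 GATA match. The 3 beyond the promoter also lie in the body of *Camta1*, so the annotation alone does not give them to *Tnfrsf9*.

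*Tnfrsf8* (CD30, found on activated lymphocytes) held a summit in intron 1, 2514 bp past the start, with 75 and 42 reads and a TGATAA, and a lower summit 4086 bp upstream with 29 and 19 reads. *Cd27*, a costimulator of naive and memory T cells, counts a peak with 91 and 55 reads (2.25 and 2.20 RPM), but its summit lies 10 bp from the start site of *Tapbpl*, a neighbour involved in antigen presentation, and 5160 bp from that of *Cd27*. *Tnfrsf14* (HVEM, the receptor of LIGHT) and *Tnfrsf25* (DR3, the receptor of TL1A) held 0 shared peaks, with highest common windows of 0.420 and 0.601 RPM and of 0.518 and 0.561 RPM in libraries 1 and 2. Both gained a shared peak when windows of 400 bp were used, and *Tnfrsf25* also when library 1 was thinned.

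**Figure D3:**
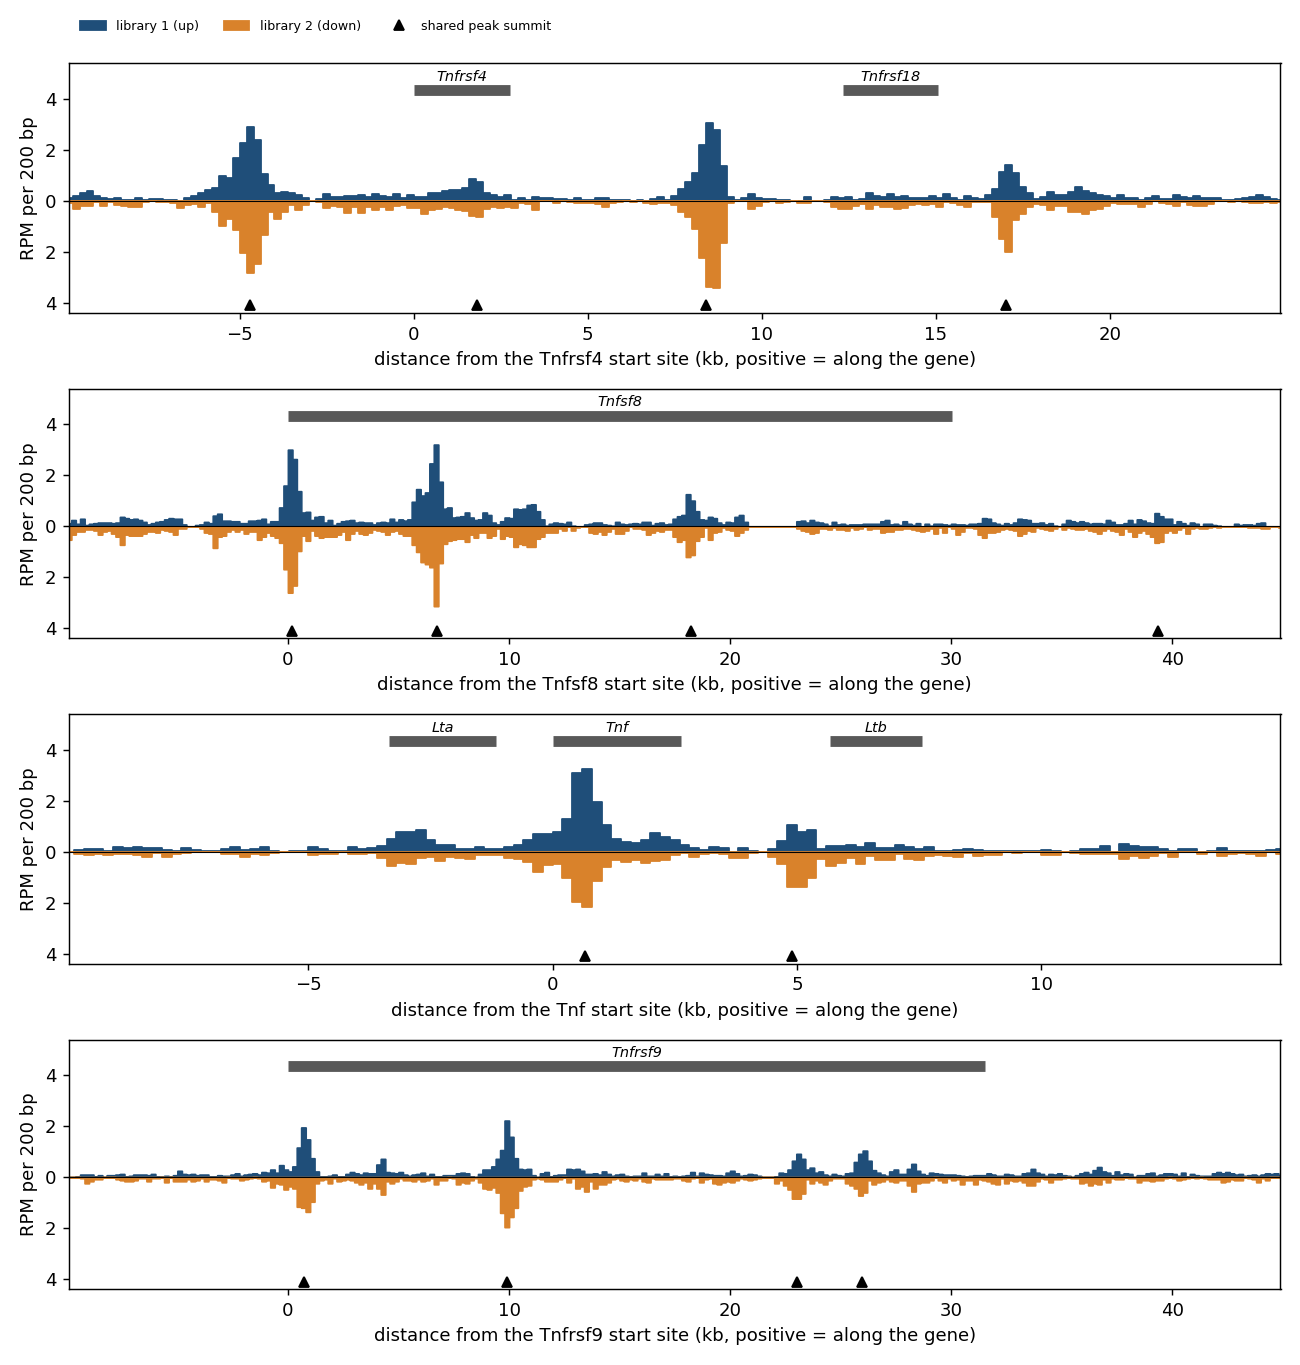
RPM in 200-bp windows (vertical axis; library 1 upwards, library 2 downwards) against the distance in kb from the start site of *Tnfrsf4*, *Tnfsf8*, *Tnf* and *Tnfrsf9*, with gene bodies as grey bars and shared summits as triangles. The peaks flanking *Tnfrsf4* and those at the start and in intron 1 of *Tnfsf8* reach similar heights in both libraries, whereas the *Tnf* peak is higher in library 1.

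The receptors with a death domain held 4 peaks at 4 of 5 genes, none within 2 kb of the gene start, beside 45.7% of all genes with a shared peak and 11.7% with one in the promoter. *Fas*, which triggers apoptosis, held a peak in intron 1, with summits at 34299400 in library 1 (99 reads, 2.44 RPM) and at 34299450 in library 2 (82 reads, 3.29 RPM). The library 1 summit lies 8734 bp past the gene start and 675 bp from another annotated transcript start, and library 2 held 79 reads in its window. *Tnfrsf1a* (TNFR1) held a summit 3988 bp past its start, also in intron 1, with 102 and 57 reads (2.52 and 2.28 RPM). Neither had a GATA match within 100 bp, as the sequences show. *Tnfrsf10b*, the mouse TRAIL receptor, had a lower peak in intron 3 with 52 and 25 reads, and *Tnfrsf21* (DR6) one outside its gene with 27 and 22 reads. The other TNF receptor, *Tnfrsf1b* (TNFR2, of activated T cells), held its tallest summit 3380 bp upstream, with 47 and 31 reads and an AGATAA centred 2 bp from the summit. *Ltbr*, the lymphotoxin β receptor of stromal and myeloid cells, held 0 shared peaks.

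Among receptors known mainly from B cells, *Cd40* held a peak 227 bp upstream of its start site with 64 and 42 reads (1.58 and 1.68 RPM) and a GATA match. *Tnfrsf13b* (TACI, a receptor of BAFF and APRIL) held a peak in intron 5 with 121 and 72 reads (2.99 and 2.88 RPM), at the 96.2 percentile, without a GATA match. That summit lies 15095 bp past the gene start and 611 bp from another annotated transcript start. *Tnfrsf17* (BCMA) held only a low upstream peak of 25 and 18 reads, and *Tnfrsf13c* (the BAFF receptor) held 0. The B cell genes *Pax5* and *Cd79a* held 0 shared peaks, as given above, which does not tell whether B cells were present.

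Of the remaining receptors, *Tnfrsf19* (TROY), best known from the nervous system and hair follicle, held a peak as tall as that between *Tnfrsf4* and *Tnfrsf18*, within counting error. It lay in the untranslated part of exon 1, 240 bp past the start site on chromosome 14, with 140 reads in library 1 (117.8 to 165.2) and 81 in library 2 (64.3 to 100.7), which is 3.46 and 3.25 RPM. No GATA match lay within 100 bp of it, nor of the upstream peak of 73 and 44 reads. *Tnfrsf26*, a neighbour of the mouse decoy TRAIL receptors *Tnfrsf22* and *Tnfrsf23*, held a peak 22 bp past its start with 94 and 63 reads. This peak and the one in its intron 1 are counted also for *Tnfrsf22*, whose own summit held 15 and 14 reads and was the lowest at the members. *Tnfrsf12a* (the TWEAK receptor) held peaks of 42 and 25 and of 45 and 19 reads, each nearest to the start of another gene.

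The ligands TNF and lymphotoxin are encoded by 3 neighbouring genes in the class III region of the mouse MHC. In intron 1 of *Tnf*, 657 bp past the start, the library 1 summit at 35201350 of chromosome 17 held 152 reads (128.8 to 178.2), the most of any member peak in that library. The library 2 summit, at 35201400, held 61 reads (46.7 to 78.4), and library 1 also held 152 reads in that window. The summit heights are 3.75 and 2.44 RPM, and the ratio of library 2 to library 1 was 0.651 (95% interval 0.476 to 0.882). The peak between *Tnf* and *Ltb* had 42 and 41 reads (1.04 and 1.64 RPM), but its summit was at 35197100 in library 1 and at 35196850 in library 2, so these are counts of different windows. In the window of the library 1 summit the libraries held 1.04 and 1.40 RPM. The count of shared peaks at each of the 3 genes fell from 2 to 1 when library 1 was thinned, and also when summits had to lie within 100 bp. The *Tnf* summit was the taller in both libraries. The windows of *Lta* and *Ltb* cover both summits, and neither gene held a summit in its body.

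*Tnfsf8* (CD30L, the ligand of CD30) held 4 shared peaks, and 3 with library 1 thinned. A summit in the untranslated part of exon 1, 197 bp past the start, had 128 and 73 reads (3.16 and 2.92 RPM), and a summit in intron 1, 6747 bp past the start, had 130 and 78 reads (3.21 and 3.13 RPM). Lower peaks lay in intron 2 (57 and 32 reads) and past the gene (21 and 18 reads, with 7 GATA matches). All 4 had a GATA match, but the nearest was centred 58 to 73 bp from the summit. *Tnfsf4* (OX40L), the ligand of OX40, held a summit 309 bp upstream of its start with 91 and 45 reads and no match, and a pair of summits 8659 and 7759 bp upstream with 62 and 45 and with 55 and 42 reads, both with AGATAA.

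*Tnfsf11* (RANKL, the T cell ligand that drives osteoclasts) held a summit 843 bp past its start with 79 and 42 reads (1.95 and 1.68 RPM) and a TGATAG centred 5 bp from it. *Cd40lg* (CD40L, which gives help to B cells) held one 1193 bp upstream with 69 and 46 reads (1.70 and 1.84 RPM) and a TTATCT centred 11 bp from it. Its peak in exon 5 was lower in library 2, with 66 and 23 reads and a ratio of 0.566 (0.336 to 0.921). That summit was at 57223850 in library 1 and at 57223750 in library 2, so these are counts of different windows. *Fasl*, which kills cells through Fas, held a summit 255 bp upstream with 56 and 29 reads and no match, and one in intron 3 with 68 and 32 reads and 2 matches. Lower peaks lay near the starts of *Tnfsf14* (LIGHT; 423 bp upstream, 35 and 19 reads), *Tnfsf13b* (BAFF; 1217 bp upstream, 35 and 19 reads) and *Tnfsf15* (TL1A; 337 bp upstream, 23 and 18 reads). For *Tnfsf14* the tallest peak stood 7773 bp upstream, with 75 and 38 reads. *Tnfsf10* (TRAIL) held its tallest peak 2378 bp upstream with 63 and 43 reads and 2 GATA matches. *Cd70*, *Tnfsf9* (4-1BBL) and *Tnfsf18* (GITRL) held peaks of 31 to 41 reads in library 1 and 17 to 22 in library 2, all outside the gene bodies.

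**Figure D4:**
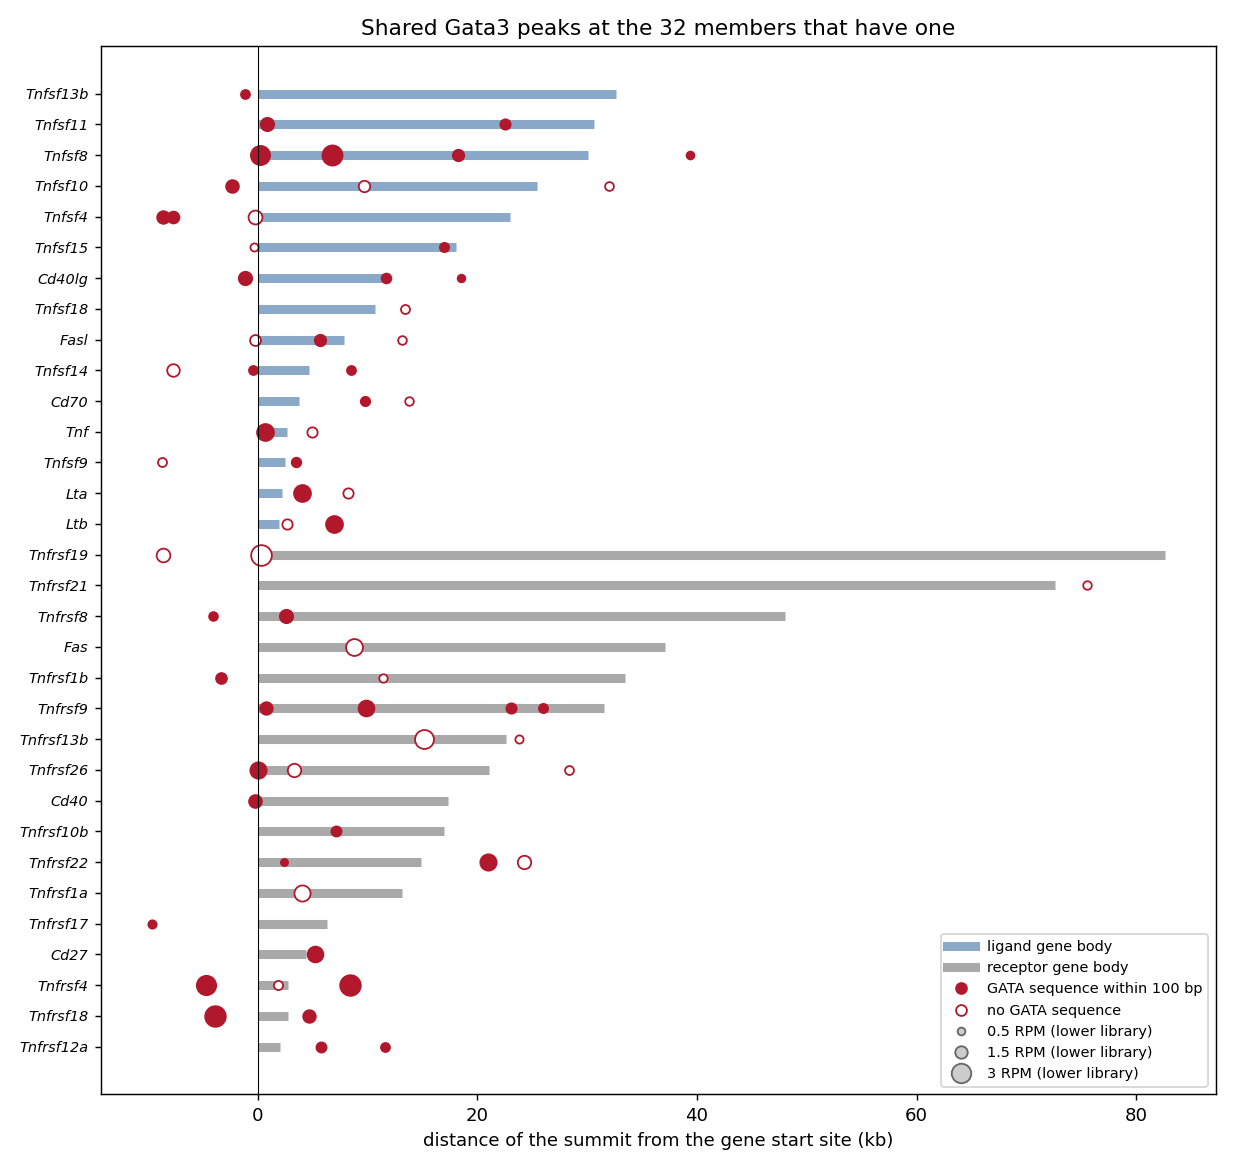
Position of each shared summit in kb from the gene start (horizontal axis) at the 32 members with a shared peak, ordered by gene length within ligands (blue bars) and receptors (grey bars). The diameter of a circle grows with the lower RPM of the libraries, and filled circles have a GATA match within 100 bp, as 38 of the 60 distinct peaks do; a peak within 10 kb of neighbouring members is drawn for each.

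The 10 members without a shared peak were *Tnfsf12* (TWEAK), *Tnfsf13* (APRIL), their read-through gene *Tnfsfm13*, *Ltbr*, *Tnfrsf11a* (RANK), *Tnfrsf11b* (osteoprotegerin), *Tnfrsf13c*, *Tnfrsf14*, *Tnfrsf23* and *Tnfrsf25*. Their highest common windows held 9 to 23 reads in library 1 and 5 to 15 in library 2. *Tnfrsf11a* had 1 peak in each library, but these did not overlap, *Tnfrsf11b* had 1 in library 2 alone, and *Tnfsf12*, *Tnfsfm13*, *Ltbr* and *Tnfrsf23* each had 1 in library 1 alone. The other 4 had 0 in either library. For *Tnfrsf23*, 43.5% of its 200-bp windows held no read, and for *Tnfrsf22* 37.9%, and the part of these empty windows in the counts was not tested. Weak sites can be missed at this depth, and a count of 0 does not show that Gata3 is absent from these genes.

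The sequences under the member peaks were read against those under all shared peaks, without a test. A GATA match lay within 100 bp of 38 of 60 member summits (63.3%), 20 of 31 at ligands and 18 of 29 at receptors, against 71.0% of all shared summits. Within 2 kb of a start site, 11 of 17 member summits had a match, and farther away 27 of 43 did. Over all shared summits these shares were 64.1% and 71.7%. The AP-1 sequence (TGACTCA or TGAGTCA) lay beside 8 of 60 (13.3%) against 12.3%, and TGTGGT on either strand, which RUNX factors bind, beside 9 of 60 (15%) against 17.2%. Of the 12 tallest member peaks, those of *Tnfrsf19*, *Tnfrsf13b*, *Fas* and *Tnfrsf1a* had no GATA match. The absence of these letters in a window does not tell why reads gathered there. Without input chromatin or a control antibody, these data do not show whether such a peak marks Gata3, and this was not tested.

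Over the 8184 windows of 200 bp at the members, the reads of the libraries had a Pearson correlation of 0.892. Sequence in the windows of more than 1 member is counted for each of them. These windows are not replicates, and both libraries share the mappability of each window. At 4 of the 60 peaks (6.67%) the 95% interval of the ratio of the libraries left out 1. This is near the 8.89% of all shared peaks and is no trait of the members. Of these 4, the *Tnf* intron and *Cd40lg* exon 5 peaks were lower in library 2. The peak beside *Ltb* and the one in exon 4 of *Tnfsf15* (33 and 38 reads, ratio 1.87, interval 1.14 to 3.07) were higher. At all 4 the summits of the libraries lie in different windows. The same holds at member peaks whose interval includes 1, among them those between *Tnfrsf4* and *Tnfrsf18* and in *Fas* intron 1, so it does not set these 4 apart. In their highest common windows *Tnfsf15* held 33 and 34 reads (0.815 and 1.36 RPM) and *Tnf* held 152 and 61 reads. The libraries were run on different instruments, and the part of that in these differences was not tested.

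**Figure D5:**
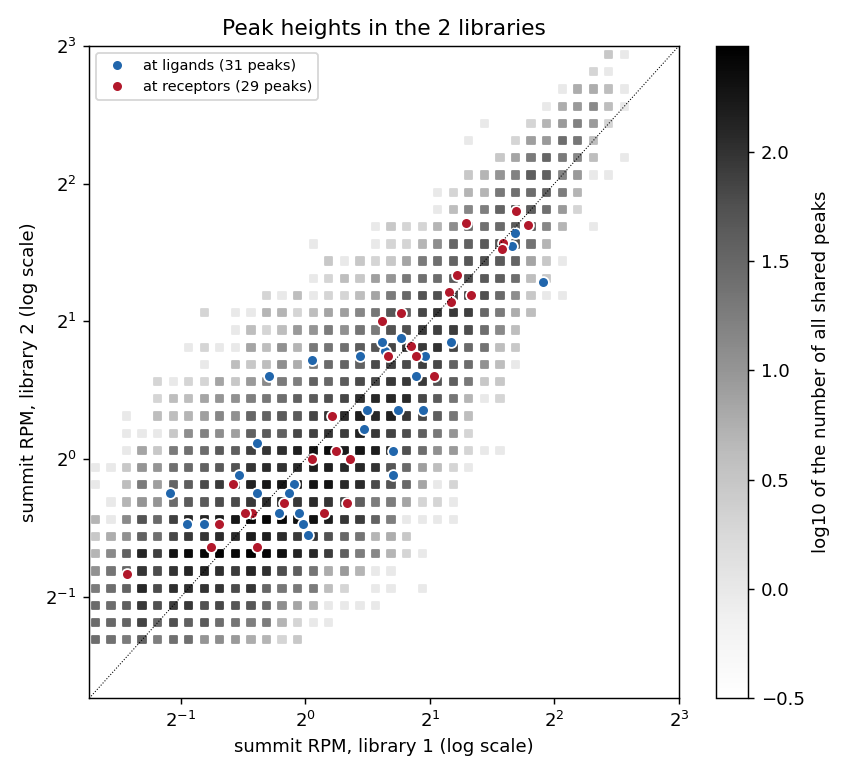
Summit RPM in library 1 (horizontal, log scale) and library 2 (vertical, log scale) of the 60 member peaks, blue at ligands (31 peaks) and red at receptors (29 peaks), over the density of all 23806 shared peaks in grey, with equal heights along the dotted line. The *Tnf* intron peak, at 3.75 and 2.44 RPM, lies below the line and apart from the other tall member peaks.

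The genes that act inside the cell below these receptors were read from a list of 33 adaptors, kinases, ubiquitin ligases and NF-κB proteins. Of these, 23 (69.7%) held a shared peak, against 45.7% of all genes, with 53 peaks. Counting the peaks of library 1 alone, 31 of the 33 held one, against 74.0% of all genes. With those of library 2 alone it was 22, against 49.5%. A shared peak within 2 kb of the start was held by 9 of the 33 (27.3%), against 11.7% of all genes. Where a peak had to stand at least 5-fold over its surroundings 6 of 33 kept one, against 18.4% of all genes, and at a q of 1e-10 it was 6 against 15.3%. The listed genes are longer, with a median of 29 kb against 17.4 kb over all genes. *Nfkb1* (p105 and p50 of NF-κB) held 8, with 143 and 99 reads (3.53 and 3.97 RPM) at the tallest, in intron 1. *Traf2*, the adaptor of TNFR2 and most costimulatory receptors, held a summit in intron 4 with 133 and 84 reads and 2 GATA matches. Taller still was a summit in the window of *Rnf31* (HOIP, of the linear ubiquitin ligase) with 233 and 167 reads, but it lies 429 bp from the start of *Irf9*. The one upstream of *Tradd*, the TNFR1 adaptor, had 137 and 93 reads and lies nearest to *Fbxl8*. The other 10 listed genes held 0, among them *Fadd*, *Ripk1*, *Chuk*, *Nfkb2* and *Rela*. They include *Traf5*, whose window is among those with no read, so its 0 is not a result about binding. Without it the count is 23 of 32 (71.9%).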

How the data were processed

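Gata3 ChIPmentation was measured in 2 libraries of TH2 cells. The authors deposited aligned reads on GRCm38, 1 line per read, with the mapping quality score of each (22 to 44) and duplicates removed: 0 reads shared a 5′ end and strand, which caps peak heights. The submitters' processing notes name Bowtie2 2.3.5.1 and MACS2 2.1.2 without their roles.

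Each read was placed 100 bp downstream of its 5′ end, and 200-bp windows were set at steps of 50 bp. The background of a window was the library mean or the mean of the surrounding 5 kb or 10 kb, its own reads included, whichever was highest. Significant windows within 100 bp were joined, and peaks overlapping by at least 1 bp were shared. A member's window was its gene body plus 10 kb. With 2 libraries of 1 condition no groups were compared, and 95% intervals cover counting error only. The calling was tried on simulated reads with planted sites, drawn around the local read density of the libraries. Such reads cannot show which peaks an input library would have removed. Python 3.11.15, NumPy 2.4.6, SciPy 1.17.1, pysam 0.24.0 and pandas 2.3.3 were used.

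The members and the signalling list were chosen with earlier results of these data known. Named in full are the members holding the 12 tallest peaks and those with a peak within 2 kb of the start, members with 0 peaks, the 4 tallest peaks of the signalling list, and nearest genes outside the family. Others were named after their values were seen. Sequences were read from the RefSeq genome of the same build. The result for 1 marker gene is not reported here.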

Additional observations from a re-analysis of the deposited data

How the results depend on the processing

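No paired analysis was possible because both libraries belong to the same condition. Under the strictest settings the counts fell for members and background alike. At a q of 1e-10, 20 members held a shared peak (15.3% of all genes did), with 21 peaks, 7 members with a promoter peak (2.77% of all genes) and 6 signalling genes. Where each peak had to stand at least 5-fold over its local background, 11 members did (18.4% of all genes), with 10 peaks, 70.0% of them with a GATA match (73.5% of all peaks), 3 members with a promoter peak (2.67% of all genes) and 6 signalling genes. In gene bodies alone there were 18 members (29.4% of all genes) with 25 peaks, and within 50 kb of them 40 members (71.2% of all genes) with 130 peaks. Each library alone gave 34 to 37 members (49.5% and 74.0% of all genes) and 65 to 101 peaks. The median height of the shared member peaks was 1.37 RPM in library 1 (0.988 over all shared peaks) and 1.26 RPM in library 2 (0.881 over all shared peaks). Thinning the deeper library to the shallower gave 1.24 RPM (0.881), and the reported value is 1.10 RPM (0.801). A GATA match within 50 bp was found at 33.3% of member peaks (46.8% of all), and AGATAA alone at 35.0% (40.8%). The other alternatives (400-bp and 100-bp windows, mapping quality of at least 30, summits within 100 bp, nearest start site, other promoter limits) kept the counts over all members within 1.5 times, but single members changed. With 100-bp windows *Tnfrsf21* and *Tnfsf13b* lost their peak and *Cd40lg* fell from 3 to 1. With summits within 100 bp *Tnfsf18* lost its peak. With 400-bp windows *Tnfrsf14* and *Tnfrsf25* gained 1. A background of genes with a read, chosen after seeing the data, stood at 47.2%. In all 10 peak sets 9 members kept a peak (*Cd40*, *Cd40lg*, *Tnfrsf13b*, *Tnfrsf18*, *Tnfrsf1b*, *Tnfrsf4*, *Tnfrsf9*, *Tnfsf10*, *Tnfsf14*), and *Tnfrsf13c* and *Tnfsf13* had none in any. Lost at both strict settings were *Cd70*, *Tnfrsf10b*, *Tnfrsf12a*, *Tnfrsf21*, *Tnfrsf8*, *Tnfsf13b*, *Tnfsf15*, *Tnfsf18*, *Tnfsf4* and *Tnfsf9*, and at the q of 1e-10 also *Fasl* and *Tnfrsf17*. The absence of an input library and the removal of duplicates limit what heights show, and the cause of these shifts was not tested.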
